A study of Mus musculus with 4 samples.

Results

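Genes for inflammatory mediators other than chemokines were followed across 4 arrays of mouse embryonic fibroblasts, connective tissue cells grown from embryos. They encode prostaglandin enzymes (Ptgs2, Ptges), cytokines and a cytokine receptor (Il6, Lif, Csf1, Il1rl1), acute-phase and complement proteins (Saa3, Lcn2, C3) and an adhesion molecule (Vcam1). Of the 10 genes listed by symbol, 8 had a probe set annotated to that gene alone, out of 19938 genes so covered in all, and each of the 8 had a single such probe set. Il1rl1 and C3 were not analysed here.

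The arrays, 1 for each group, held cells labelled NFAT5/TonEBP knockout in hypertonic medium, the same cells in isotonic medium, wild-type cells in hypertonic medium and wild-type cells in isotonic medium. Unsynchronised cultures spent 20 h in their medium, which NaCl brought to 450 mosmol/kg in the hypertonic groups. Each array was hybridised with a pool of 4 samples, so there were no replicates, and the values below carry no test between groups. The labels give no strain, deleted part, passage or embryo of origin, so genotype and cell isolate cannot be told apart.

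Prostaglandin synthesis by these enzymes starts from arachidonic acid, which cyclooxygenases turn into a common precursor and terminal synthases into single prostaglandins. Fibroblasts make these mediators, with IL-6 and other cytokines, when IL-1, TNF or microbial products activate the transcription factor NF-kappaB. NFAT5, also called TonEBP, shares a DNA-binding domain of the Rel type with NF-kappaB and switches on osmolyte genes in hypertonic medium; in the kidney medulla, hypertonicity is known to raise Ptgs2.

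Signals are log2 values of the authors' table, and a difference of 1 is 2-fold. The dim limit is the median signal of an array's one-gene probe sets, 5.41 and 5.38 on the hypertonic and isotonic knockout-labelled arrays and 5.44 and 5.43 on the hypertonic and isotonic wild-type arrays; below it a signal mixes background with expression. A gene counts as measured where at least 1 of the arrays compared read above the limit. Nfat5 itself read 8.24 and 8.03 on the hypertonic and isotonic knockout-labelled arrays, against 8.19 and 7.74 on the hypertonic and isotonic wild-type arrays. It was therefore not lower in the cells labelled knockout, and whether its probe set lies in the deleted part is unknown here; the cells are called knockout-labelled for this reason. The genotypes also differed in Xist, the noncoding RNA of X inactivation, at 3.16 and 3.75 in knockout-labelled hypertonic and isotonic cells, against 9.31 and 8.99 in wild-type hypertonic and isotonic cells. Of the 12 fibroblast markers, 9 were above the dim limit on all arrays. The mean signal of all 12 was 7.63 and 8.01 in knockout-labelled hypertonic and isotonic cells and 8.89 and 8.61 in wild-type hypertonic and isotonic cells. In hypertonic medium 7 of the 10 measured fibroblast markers were at least 2-fold lower in knockout-labelled than in wild-type cells, with a median difference of -1.56 against -0.01 over all measured genes. In the hypertonic response of knockout-labelled cells their median was -0.47, and in that of wild-type cells 0.42. All 8 mast cell and all 8 endothelial markers and 11 of 12 macrophage and leukocyte markers stayed below the limit on all 4 arrays. Of 8 epithelial markers, 5 were above the limit on at least 1 array. The mean signal of all 8 was 5.44 and 5.02 in knockout-labelled hypertonic and isotonic cells and 5.23 and 5.26 in wild-type hypertonic and isotonic cells. The part of the fibroblast and epithelial markers in the results was not tested.

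Promoter windows of 3 members are shown because they pair genes that were read well above background (Ptgs2, Csf1) with one that was not (Il6). The windows, from RefSeq on GRCm38.p6, run from 250 bases before to 50 after the annotated start and are printed 5′ to 3′ on the gene's strand. They lie at chr1:150099781-150100080 (plus strand) for Ptgs2, chr3:107760420-107760719 (minus strand) for Csf1 and chr5:30012864-30013163 (plus strand) for Il6. Capitals mark matches on either strand to GGGA and TCC with 3 bases between them (a kappaB form), TGGAAA (the core bound by NFAT5 and other NFAT factors), ACGTCA (a cyclic AMP response element core) or TGANTCA (AP-1).
Ptgs2: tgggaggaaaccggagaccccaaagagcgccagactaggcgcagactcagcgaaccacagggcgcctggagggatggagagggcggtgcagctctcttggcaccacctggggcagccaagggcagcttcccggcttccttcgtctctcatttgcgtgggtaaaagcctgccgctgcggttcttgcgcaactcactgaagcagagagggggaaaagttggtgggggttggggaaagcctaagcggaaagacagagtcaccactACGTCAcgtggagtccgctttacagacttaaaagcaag
Csf1: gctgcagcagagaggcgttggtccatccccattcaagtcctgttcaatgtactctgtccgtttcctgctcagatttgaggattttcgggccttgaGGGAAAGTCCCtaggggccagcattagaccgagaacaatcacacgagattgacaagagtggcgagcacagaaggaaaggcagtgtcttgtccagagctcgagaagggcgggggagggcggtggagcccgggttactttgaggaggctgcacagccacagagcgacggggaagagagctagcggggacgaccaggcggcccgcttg
Il6: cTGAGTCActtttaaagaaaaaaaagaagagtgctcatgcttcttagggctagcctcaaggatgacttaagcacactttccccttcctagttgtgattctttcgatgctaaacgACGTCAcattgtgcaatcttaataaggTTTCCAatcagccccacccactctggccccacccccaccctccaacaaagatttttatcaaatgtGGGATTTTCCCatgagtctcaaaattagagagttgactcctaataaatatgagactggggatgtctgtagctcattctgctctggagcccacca

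The motif letters were chosen with these sequences in view. In Csf1 the capitals are 2 overlapping kappaB matches on opposite strands, the first starting 155 bases before the start site. Il6 held all 4 motifs, among them a kappaB pair starting 44 bases before the start site. Ptgs2 held the cyclic AMP element core, starting at base 13 from the annotated start. These positions hold for the annotated starts alone, which were not checked in these cells. Windows were found for 9 of the 10 members, all but Vcam1, and numbered 10, since Il1rl1 had 2 start sites. A kappaB match was present in 2 of the 10 windows, those of Csf1 and Il6, against 4.59% of all 32851 windows of the same length. The NFAT core was present in 5 windows (C3, 1 of those of Il1rl1, Il6, Lcn2 and Saa3) against 21.4% of windows, the cyclic AMP element core in 3 (the same window of Il1rl1, Il6 and Ptgs2) against 7.51%, and the AP-1 motif in 2 (Il6 and Lif) against 7.81%. No letters of this kappaB form or NFAT core were found in the Ptgs2 window. Other forms and the sequence outside the window were not searched. Because the letters were chosen with these sequences in view, counts above the shares of all windows are no evidence of enrichment. A match describes the sequence and is no evidence of a bound factor.

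Ptgs2, Csf1 and Vcam1 were above the dim limit on all 4 arrays, and the other 5 were below it on all 4. The single difference of 2-fold or more among them was in Vcam1, which was higher in knockout-labelled than in wild-type cells in hypertonic medium.

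**Figure D1:**
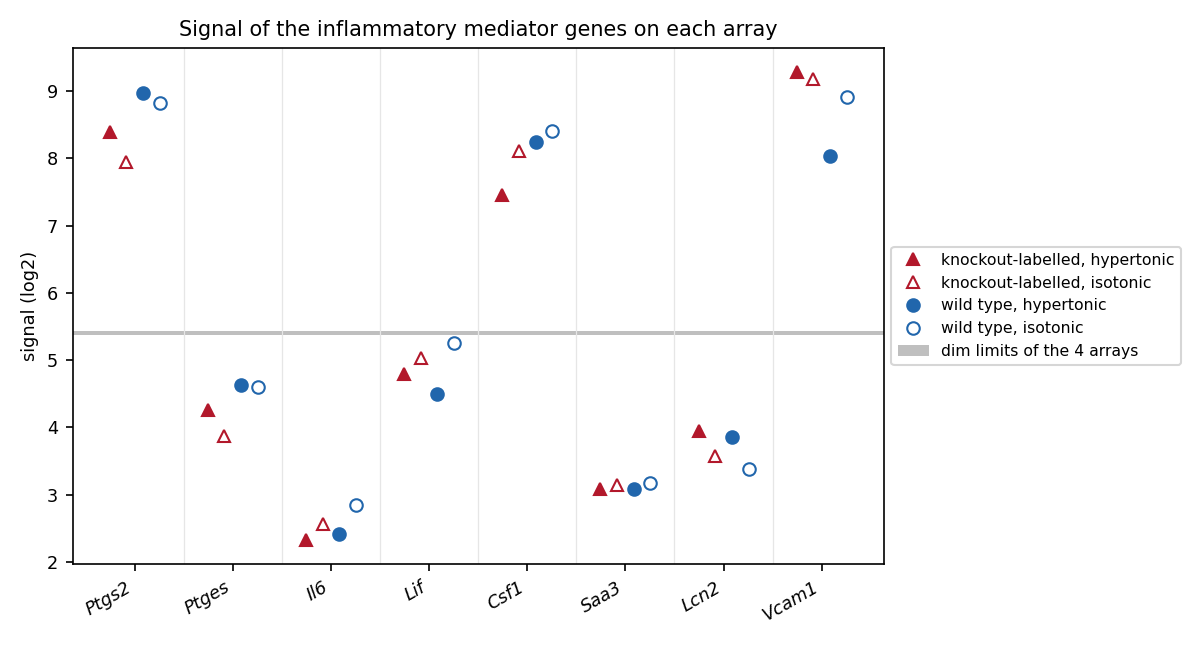
Signal (log2, y axis) of the 8 members with a probe set on each of the 4 arrays; each point is 1 array of a pool, and the grey band spans the dim limits of the arrays. Ptgs2, Csf1 and Vcam1 sit above the band on all 4 arrays, and Ptges, Il6, Lif, Saa3 and Lcn2 sit below it.

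The first enzyme of the group, Ptgs2, encodes the inducible cyclooxygenase-2. Its signal was 8.39 in knockout-labelled hypertonic cells, 7.94 in knockout-labelled isotonic cells, 8.97 in wild-type hypertonic cells and 8.82 in wild-type isotonic cells. Both knockout-labelled arrays thus read below both wild-type arrays. The knockout-labelled over wild-type difference was -0.88 in isotonic medium (1.84-fold lower), the 176th lowest of 10191 measured genes, and -0.57 in hypertonic medium. The hypertonic over isotonic difference was 0.45 in knockout-labelled cells and 0.15 in wild-type cells, the second no larger than the spread between probe sets of 1 gene in that comparison, an SD of 0.15 per probe set. None of these reached 2-fold. If the labels of the knockout-labelled arrays were exchanged, the genotype difference in hypertonic medium would be -1.02, past 2-fold, and that in isotonic medium -0.43. Ptges encodes the microsomal synthase that turns the product of Ptgs2 into prostaglandin E2. It read 4.26 and 3.87 in knockout-labelled hypertonic and isotonic cells and 4.63 and 4.60 in wild-type hypertonic and isotonic cells. All 4 signals were below the dim limit. The genotype difference of Ptges was -0.38 in hypertonic and -0.73 in isotonic medium; the middle 95% of genes that were dim on all arrays ran from -0.51 to 0.58 and from -0.61 to 0.41 in these comparisons. Sizes are poorly determined at such signals.

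Csf1 encodes the macrophage colony-stimulating factor, a survival and growth signal for macrophages. Its signal was 7.45 in knockout-labelled hypertonic cells, 8.11 in knockout-labelled isotonic cells, 8.25 in wild-type hypertonic cells and 8.41 in wild-type isotonic cells. The knockout-labelled hypertonic array stood lowest, and the other 3 lay close together. The hypertonic over isotonic difference was -0.66 in knockout-labelled cells (1.58-fold lower) and -0.16 in wild-type cells. The knockout-labelled over wild-type difference was -0.80 in hypertonic medium (1.74-fold lower) and -0.30 in isotonic medium. All of these were under 2-fold, and 966 of 10277 measured genes had a knockout-labelled response as low as that of Csf1 or lower.

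Il6 encodes interleukin-6, which drives the acute-phase response of the liver. It read 2.32 and 2.57 in knockout-labelled hypertonic and isotonic cells and 2.41 and 2.85 in wild-type hypertonic and isotonic cells, far below the dim limit on each array. Lif, encoding leukemia inhibitory factor of the same cytokine family, read 4.79 and 5.03 in knockout-labelled hypertonic and isotonic cells and 4.49 and 5.26 in wild-type hypertonic and isotonic cells. Its wild-type isotonic signal came nearest to the dim limit of all signals of the 5 dim members, 0.17 below it. The hypertonic over isotonic difference of Lif was -0.77 in wild-type cells and -0.23 in knockout-labelled cells, sizes that are poorly determined at such signals. The wild-type value lay outside the middle 95% of genes that were dim on all arrays, -0.50 to 0.47.

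Saa3 and Lcn2, a serum amyloid A protein and the iron-siderophore binding protein lipocalin 2, are acute-phase genes that fibroblasts can switch on strongly in inflammation. Saa3 read 3.09 and 3.15 in knockout-labelled hypertonic and isotonic cells and 3.08 and 3.17 in wild-type hypertonic and isotonic cells, a range of 0.09 over all 4 arrays. Lcn2 read 3.94 and 3.57 in knockout-labelled hypertonic and isotonic cells and 3.86 and 3.38 in wild-type hypertonic and isotonic cells. The hypertonic over isotonic difference of Lcn2 was 0.37 in knockout-labelled cells and 0.47 in wild-type cells, with all 4 signals in the dim range. In that range the middle 95% of the 9396 genes below the limit on all arrays had hypertonic over isotonic differences between -0.41 and 0.66 in knockout-labelled cells and between -0.50 and 0.47 in wild-type cells. The differences of Saa3 lay inside this spread in both genotypes, and that of Lcn2 lay inside it in knockout-labelled cells and at its upper edge in wild-type cells.

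Vcam1 encodes vascular cell adhesion molecule 1, which binds the leukocyte integrin VLA-4 and is a classical NF-kappaB target. Its signal was 9.29 in knockout-labelled hypertonic cells, 9.17 in knockout-labelled isotonic cells, 8.04 in wild-type hypertonic cells and 8.91 in wild-type isotonic cells. The wild-type hypertonic array stood apart below the other 3. In hypertonic medium the knockout-labelled over wild-type difference was 1.25 (2.38-fold higher), the 142nd highest of 10374 measured genes. In isotonic medium it was 0.27 (1.20-fold higher). The hypertonic over isotonic difference was 0.12 in knockout-labelled cells and -0.87 in wild-type cells (1.83-fold lower), the 84th lowest of 10134 measured genes. The response of knockout-labelled cells less that of wild-type cells was 0.99, just under 2-fold as deposited, and 1.02 to 1.04 after quantile normalization, cyclic loess normalization or centring. With the labels of the knockout-labelled arrays exchanged it was 0.75, and the genotype difference in hypertonic medium was 1.13. The difference in Vcam1 was far larger than the spread between probe sets of 1 gene in that comparison, an SD of 0.21 per probe set over 448 genes with 2 probe sets, but that spread leaves out variation between cultures. In the same comparison the fibroblast markers had a median of -1.56, and their part in the Vcam1 difference was not tested. Fewer cells expressing a gene and less RNA per cell cannot be told apart in these pools.

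Across the whole table, 9.00% of measured genes were at least 2-fold higher or lower in knockout-labelled than in wild-type cells in hypertonic medium, and 2.57% were at least 2-fold higher, against 1 of the 3 measured members. In the other comparisons 0 of the 3 reached 2-fold. The shares over all measured genes there were 3.46% for the hypertonic response of knockout-labelled cells, 1.42% for that of wild-type cells, 2.87% for the genotype difference in isotonic medium and 6.94% for the difference of the responses. With 3 measured genes, counts of 0 and 1 say little beside shares of this size. The members' median difference was -0.57 in the hypertonic genotype comparison, beside -0.01 over all measured genes, since Ptgs2 and Csf1 were lower where Vcam1 was higher.

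**Figure D2:**
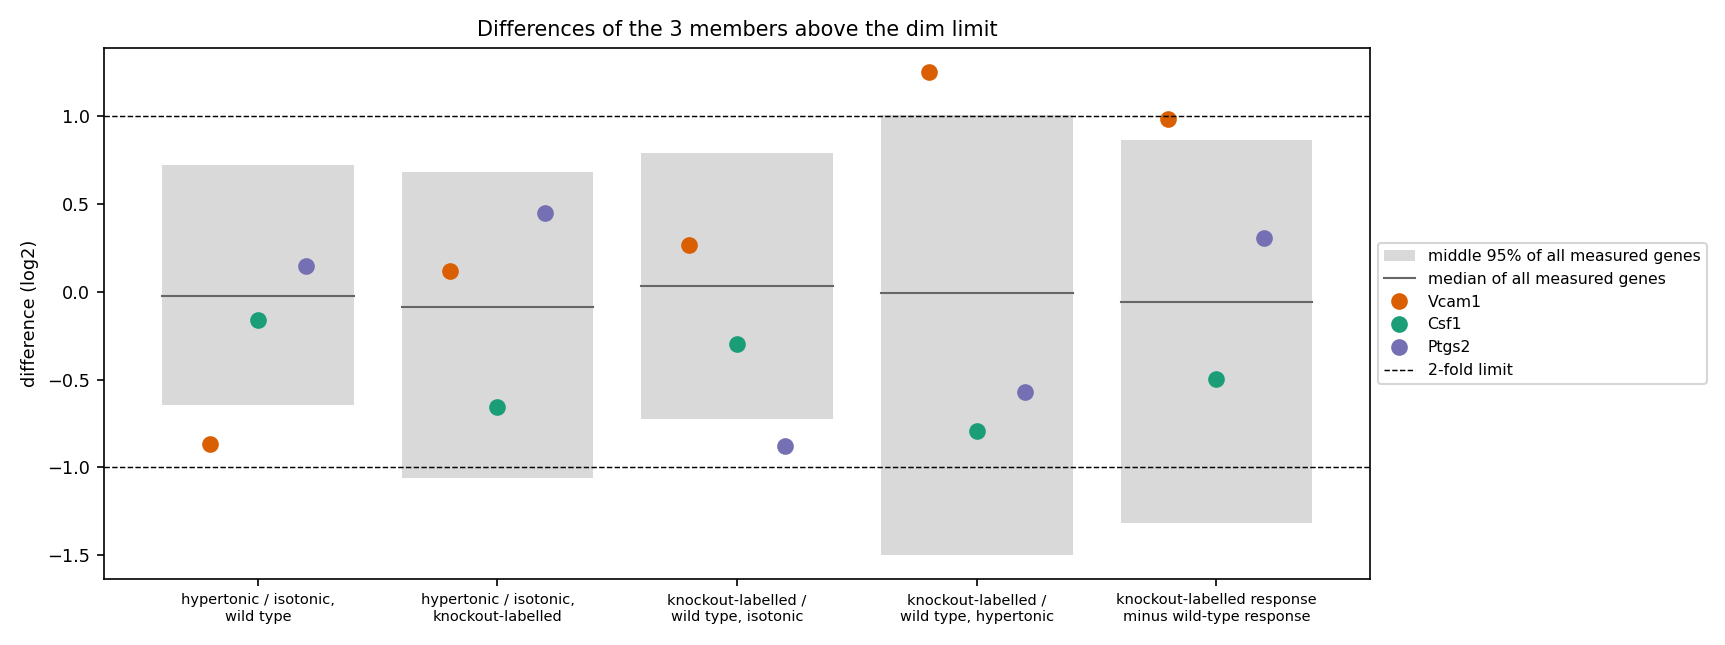
Differences (log2, y axis) of Vcam1, Csf1 and Ptgs2 in the 5 comparisons (x axis); grey boxes hold the middle 95% of all measured genes, the grey line is their median and dashed lines mark 2-fold. Vcam1 lies outside the boxes at 1.25 in the hypertonic genotype comparison, -0.87 in the wild-type response and 0.99 in the difference of the responses; Ptgs2 at -0.88 lies outside the box of the isotonic genotype comparison.

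Profiles over the 4 arrays were compared with those of 10224 other measured genes, each centred on its own mean, for the members that spanned at least 1 log2 unit. Vcam1 was nearest to Utp20, a ribosome biogenesis gene, with a root mean square difference of 0.06, then to the metallothionein gene Mt2 (0.06) and the growth-associated protein gene Gap43 (0.08). Like Vcam1, these were higher in knockout-labelled than in wild-type hypertonic cells, Utp20 by 1.11, Mt2 by 1.21 and Gap43 by 1.07. This likeness follows from their choice by closeness to Vcam1 on the same arrays. Ptgs2 was nearest to the ubiquitin hydrolase gene Uchl1 (0.05), Ndrg4 (0.05) and the G protein gene Gnao1 (0.05). With 4 arrays, close profiles are easily found: 5 genes lay within 0.1 of Vcam1 and 9 within 0.1 of Ptgs2.

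Genes of the surrounding pathways were taken from 8 lists. Of their 130 genes with a probe set, 70 were below the dim limit on all 4 arrays. In the list of NF-kappaB subunits, inhibitors and feedback genes, 16 of 18 genes were measured. In hypertonic medium 12 of the 16 were higher in knockout-labelled than in wild-type cells. Their median difference was 0.29 against -0.01 over all measured genes, of which fewer lay above 0 than below. Past 2-fold was 1 of the 16, beside 9.00% of all measured genes. That gene was Tnfaip3, encoding the NF-kappaB feedback inhibitor A20, at 6.63 in knockout-labelled and 5.59 in wild-type hypertonic cells, a difference of 1.03. In isotonic medium the list's median was -0.10, and none passed 2-fold, where 2.87% of all measured genes did.

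The hypertonic over isotonic difference of these 16 genes was above 0 for 12 (75%) in knockout-labelled cells, against 40.0% of all genes measured on any array, and the median was 0.15 against -0.09 over all measured genes. In wild-type cells it was below 0 for 12 (75%), against 53.7% of all genes measured on any array, with a median of -0.18 against -0.02. None of the 16 passed 2-fold in either genotype, beside 3.46% of all measured genes in knockout-labelled and 1.42% in wild-type cells. For 8 of 16 the difference was above 0 in knockout-labelled and below 0 in wild-type cells, as for 21.0% of all genes measured on any array. The excess of the knockout-labelled over the wild-type response was largest for Nfkb2 (1.05), Relb (0.93), the Rel-family partner of the Nfkb2 product, and the inhibitor gene Nfkbie (0.85). Nfkb2 read 9.31 and 8.88 in knockout-labelled hypertonic and isotonic cells and 8.66 and 9.28 in wild-type hypertonic and isotonic cells. For Nfkb2, as for Vcam1, the wild-type hypertonic array was the lowest of the 4. Ikbkg, the regulatory subunit of the kinase that releases NF-kappaB, went the other way, with responses of -0.73 in knockout-labelled and -0.03 in wild-type cells. With the knockout-labelled arrays exchanged the list's median difference of responses was 0.15, against 0.31 as labelled, beside all-gene medians of 0.11 and -0.06.

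**Figure D3:**
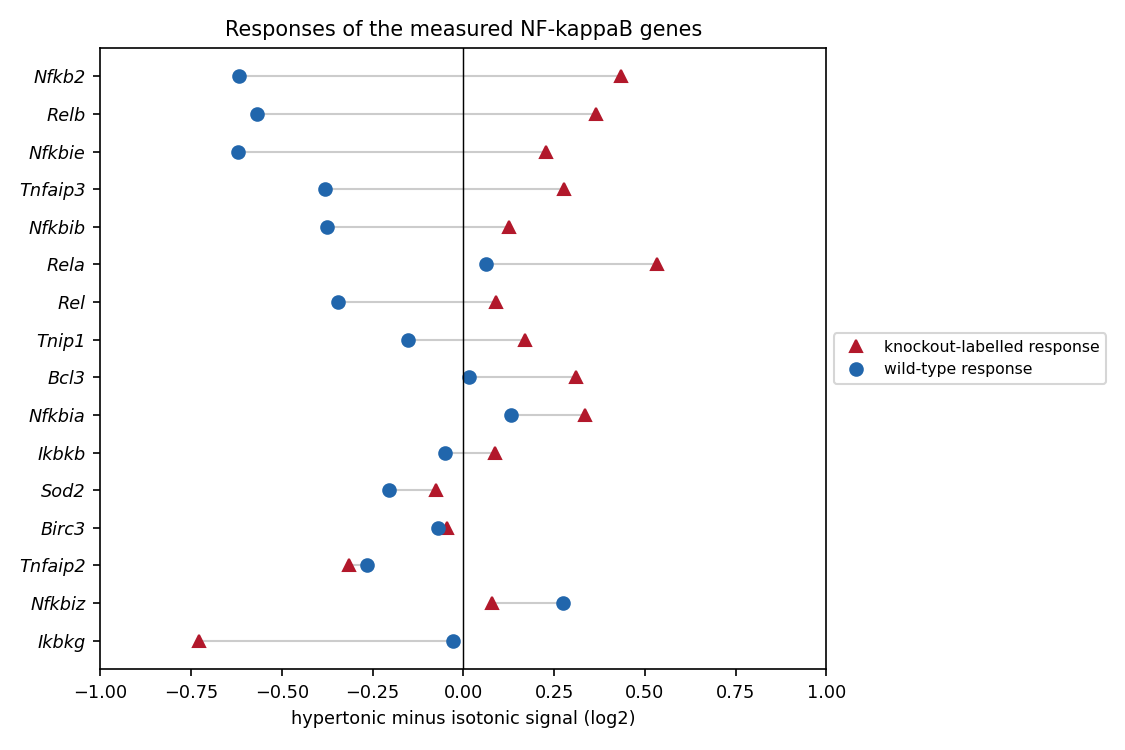
Hypertonic minus isotonic signal (log2, x axis) of the 16 measured NF-kappaB genes (rows) in knockout-labelled cells (triangles) and wild-type cells (circles); a line joins both values of a gene, and each value comes from 1 array per medium. Nfkb2, Relb and Nfkbie have the widest gaps with the knockout-labelled value on the right, and Ikbkg the widest with it on the left.

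Among prostaglandin genes, 21 of 22 had a probe set and 11 were measured on at least 1 array. Ptgfr, the receptor for prostaglandin F2alpha, read 4.76 and 5.36 in knockout-labelled hypertonic and isotonic cells and 6.27 and 4.79 in wild-type hypertonic and isotonic cells. It was above the dim limit on the wild-type hypertonic array alone, with a hypertonic over isotonic difference of 1.49 in wild-type cells and a knockout-labelled over wild-type difference of -1.51 in hypertonic medium. Ptgis, the prostacyclin synthase gene, read 5.24 and 5.00 in knockout-labelled hypertonic and isotonic cells, below the limit, against 5.98 and 6.13 in wild-type hypertonic and isotonic cells. Its genotype difference was -1.13 in isotonic medium and -0.74 in hypertonic medium. The measured genes of the list had no common direction between genotypes. Of these, 6 of 11 were above 0 in hypertonic medium (median 0.02) and 5 of 9 in isotonic medium (median 0.05). With dim genes included, the medians of all 21 were -0.17 in hypertonic and -0.18 in isotonic medium. Those over all genes were then 0.04 and -0.04. Sizes of dim genes are poorly determined. Pla2g4a, the phospholipase that frees arachidonic acid, ranged from 8.99 to 9.34 over the 4 arrays.

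Receptor genes of the IL-6 family read above the dim limit on all arrays, as did the ligand genes Ctf1 (5.60 to 6.09) and Clcf1 (6.58 to 6.63), while the ligand genes Il6, Lif, Il11 and Osm were dim on all arrays. Osmr, encoding the oncostatin M receptor, read 5.70 and 7.58 in knockout-labelled hypertonic and isotonic cells and 7.38 and 7.75 in wild-type hypertonic and isotonic cells. The knockout-labelled hypertonic array stood apart, with a hypertonic over isotonic difference of -1.88 in knockout-labelled and -0.37 in wild-type cells. Lifr, encoding the receptor for Lif, read 6.33 and 7.81 in knockout-labelled hypertonic and isotonic cells and 6.71 on both wild-type arrays. Its response was -1.48 in knockout-labelled and -0.01 in wild-type cells, and it was 1.10 higher in knockout-labelled than in wild-type isotonic cells. Il6st, encoding the shared signal chain gp130, was lower in knockout-labelled than in wild-type cells by similar amounts in hypertonic medium (-0.80) and isotonic medium (-0.78), under 2-fold. Of the 10 measured genes of the list, 2 passed 2-fold in the knockout-labelled response, where 3.46% of all measured genes did, and 0 in the wild-type response, where 1.42% did.

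In the colony-stimulating factor list, 5 of 8 genes were dim on all arrays, among them the Csf1 receptor gene Csf1r, and none passed 2-fold. In the IL-1 and IL-33 list 6 of 16 genes were measured. Il1rn, the IL-1 receptor antagonist gene, read 6.84 and 6.17 in knockout-labelled hypertonic and isotonic cells and 5.83 and 5.93 in wild-type hypertonic and isotonic cells. It was the 1 gene of this list past 2-fold, at 1.01 in the hypertonic genotype comparison, where 9.00% of all measured genes passed. The ligand genes Il1a, Il1b, Il18 and Il33 were dim on all arrays.

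Of 17 acute-phase genes, 15 were dim on all 4 arrays, including Saa3 and Lcn2. The exception with a large difference was Ptx3, encoding the long pentraxin that fibroblasts make locally. It read 5.54 and 7.72 in knockout-labelled hypertonic and isotonic cells and 7.91 and 8.37 in wild-type hypertonic and isotonic cells. The knockout-labelled hypertonic array stood apart, as for Osmr. The mean signal of the fibroblast markers was lowest there too, at 7.63 against 8.01 in knockout-labelled isotonic cells, without standing apart. Their part was not tested. The response of Ptx3 was -2.18 in knockout-labelled and -0.45 in wild-type cells. In the complement list, where C3 was not analysed, 16 of 21 genes were dim on all arrays. Cfp, the properdin gene, read 7.20 and 6.59 in knockout-labelled hypertonic and isotonic cells, against 5.66 and 6.04 in wild-type hypertonic and isotonic cells. Its genotype difference was 1.54 in hypertonic medium and 0.55 in isotonic medium. Serping1, the C1 inhibitor gene, was above the limit on the wild-type hypertonic array alone (5.92), against 3.72, 4.21 and 4.51 on the knockout-labelled hypertonic, knockout-labelled isotonic and wild-type isotonic arrays. C1s1, a C1 protease gene, read 5.54 and 6.05 in knockout-labelled hypertonic and isotonic cells, against 5.35 and 4.20 in wild-type hypertonic and isotonic cells, both below the limit.

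Among adhesion molecules, 7 of 15 genes were measured. In hypertonic medium Vcam1, itself a member, was higher and Alcam lower by at least 2-fold in knockout-labelled cells. Of all measured genes, 9.00% passed 2-fold in that comparison. There 6 of the 7 were above 0, with a median of 0.31 against -0.01 over all measured genes. In isotonic medium 2 of 6 were above 0, with a median of -0.39 against 0.03. The knockout-labelled response was above 0 for 7 of 7, against 40.0% of all genes measured on any array (medians 0.62 and -0.09). The wild-type response was above 0 for 2 of 6, with a median of -0.05 against -0.02. Alcam, an adhesion molecule of the immunoglobulin family, read 6.81 and 6.19 in knockout-labelled hypertonic and isotonic cells and 8.48 and 7.84 in wild-type hypertonic and isotonic cells. Its genotype difference was nearly equal in both media, -1.66 in hypertonic and -1.65 in isotonic medium, unlike that of Vcam1, which was 1.25 and 0.27. Icam1, another NF-kappaB target and adhesion molecule, read 5.64 and 4.94 in knockout-labelled hypertonic and isotonic cells and 5.25 and 5.14 in wild-type hypertonic and isotonic cells, above the limit on the knockout-labelled hypertonic array alone. Itgb7, an integrin chain of leukocytes, had a response of 1.09 in knockout-labelled and -0.05 in wild-type cells, while 11 of 12 macrophage and leukocyte markers stayed below the dim limit on all arrays.

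**Figure D4:**
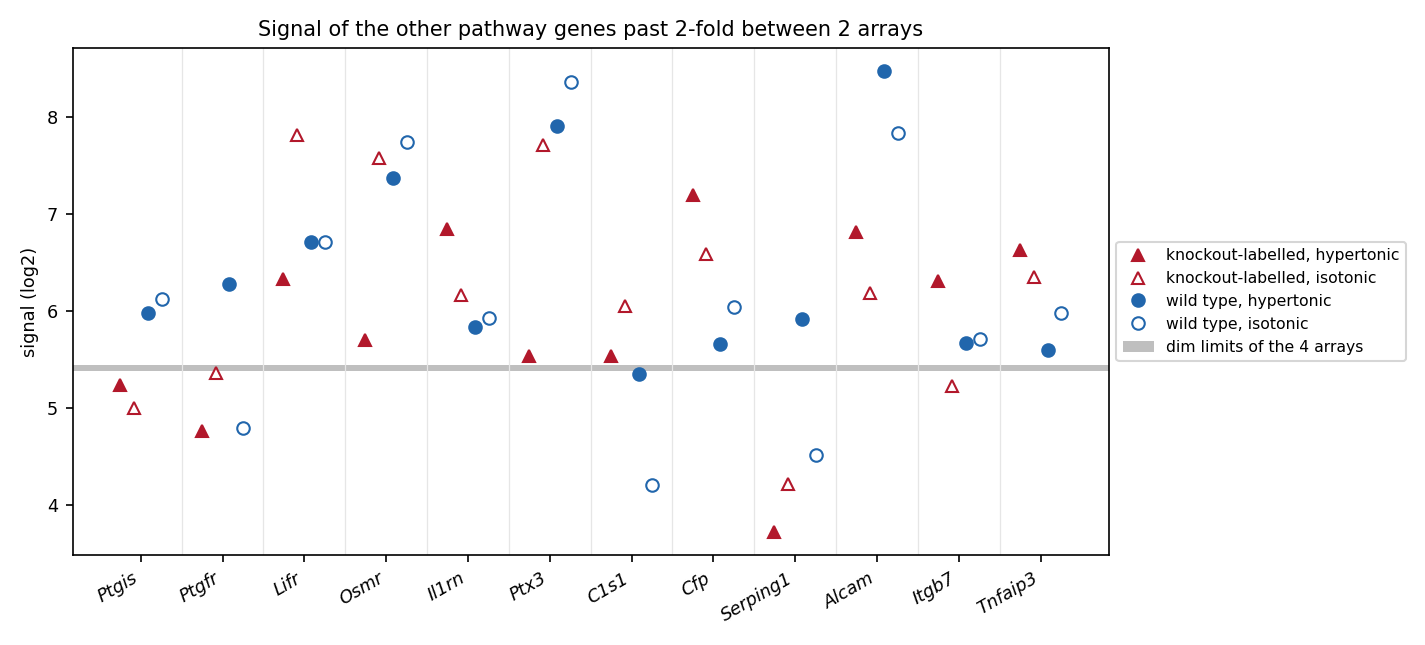
Signal (log2, y axis) on each of the 4 arrays for the 12 pathway genes other than Vcam1 that differed at least 2-fold between arrays of 1 comparison; the grey band spans the dim limits. The knockout-labelled hypertonic array is the lowest for Osmr (5.70), Ptx3 (5.54) and Lifr, and for Ptgfr and Serping1, which are dim there. It is the highest for Il1rn (6.84), Cfp (7.20), Tnfaip3 and Itgb7.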

How the data were processed

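Poly(T)-primed, linearly amplified cRNA was read on Affymetrix Mouse Gene 1.0 ST arrays (the labels' protocols), 1 array for each of the 4 groups, with 4 samples pooled per array, per the series' design text. The deposited values are taken as log2 signal per probe set, read from their range of 1.57 to 13.94; the submitters' processing notes name MAS5, and how arrays were normalized was not given in the sources used here. Values were used as deposited.

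Of 35557 probe sets, 21789 had 1 gene symbol in the platform annotation, 1621 several and 12147 none; the last 2 kinds were not used. The brightest probe set stood for a gene. For list genes, 2 older symbols were updated through RefSeq. Differences were taken between arrays and counted at 2-fold. The counting step was tested on simulated data. No test across samples was possible with 1 array per group, and the number of arrays limits the precision. The spread between probe sets was taken from genes with exactly 2.

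The members and lists were chosen with earlier results of these data known. Named were all members, list genes past 2-fold between 2 arrays, the 2 with the highest mean signal per list, and the 3 nearest profiles of members spanning at least 1 log2 unit; the text uses a subset, and Relb, Nfkbie, Ikbkg, Icam1, Csf1r and the ligands of the IL-1 and IL-6 families were added after their values were seen. Alternatives were quantile and cyclic loess normalization, centring, no dim limit, the 75th percentile as dim limit, averaged probe sets, a limit of 1.5-fold and the knockout-labelled arrays exchanged. Python 3.11.15, pandas 2.3.3, numpy 2.4.6, matplotlib 3.10.9, R 4.3.3 and limma 3.58.1 were used.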

Additional observations from a re-analysis of the deposited data

Results flagged for a closer look

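Several genes had responses to hypertonic medium of opposite direction in the genotypes; with 1 array per group the difference between the responses was not tested. Among the members this was Vcam1, with responses of 0.12 in knockout-labelled and -0.87 in wild-type cells and a knockout-labelled minus wild-type difference of 0.99. Its knockout-labelled response lay within the SD of 0.19 per probe set, and with the knockout-labelled arrays exchanged it was -0.12, the direction of the wild-type response. Of the named pathway genes with at least a 2-fold difference of responses, Nfkb2 (1.05) and Itgb7 (1.14) had positive differences. The wild-type response of Itgb7, -0.05, lay within the SD of 0.15 per probe set. Ptgfr (-2.08), Serping1 (-1.90) and C1s1 (-1.66) had negative ones, with wild-type isotonic signals below the dim limit, so their sizes are poorly determined. Both knockout-labelled signals of Ptgfr and Serping1 and both wild-type signals of C1s1 were below it. The direction of those responses is therefore poorly determined too.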

How the results depend on the processing

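With 1 array per group, no spread between cultures was seen, and the size and order of signals below the dim limit are poorly determined. No paired analysis was possible because each group had a single array. Under quantile normalization, cyclic loess normalization and centring, 120 of 120 member differences moved by no more than the spread between probe sets of a gene. Centring could move none by more, since it shifts each by the all-gene median, at most 0.09 in size against SDs of 0.15 or more. The spread came from measured probe sets, while 5 of the 8 members were dim on all arrays. Averaging probe sets could move none, since each member had 1. With the knockout-labelled arrays exchanged 26 of 32 moved by more than that spread. The 1 difference past 2-fold, that of Vcam1 in the hypertonic genotype comparison, kept its sign (1.25 and 1.13). The exchange turns the sign of every knockout-labelled response by construction. The difference of responses turned its sign for Ptgs2 (0.31 to -0.60), Ptges (0.36 to -0.42) and Csf1 (-0.50 to 0.82), and kept it for the other members. Quantile normalization shifted the median of all measured genes in the knockout-labelled response by 0.10.

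In the difference of responses the count of members past 2-fold was 0 as deposited and 1, Vcam1, under quantile normalization, cyclic loess normalization, centring or a 1.5-fold limit. At 1.5-fold the count was 1 in place of 0 in the wild-type response (Vcam1), the knockout-labelled response (Csf1) and the isotonic genotype comparison (Ptgs2), all lower. In the hypertonic genotype comparison the count of 1 became 2 at 1.5-fold (with Csf1) and 2 with the knockout-labelled arrays exchanged (with Ptgs2); the other alternatives left it at 1. For the exchange, the cause was not tested.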
